A study of Homo sapiens with 8 samples.

Results

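CXC chemokines are small secreted proteins that guide migrating cells. CXCL8 (interleukin 8) and CXCL3 draw neutrophils through the receptor CXCR2, and CXCL8 also binds CXCR1. CXCL12, made by stromal cells including fibroblasts, acts through CXCR4 and the scavenging receptor ACKR3, and holds CXCR4-bearing cells in tissues. Among the transcripts recovered with eIF4G2, an initiation factor of translation that resembles eIF4G1 but does not bind the cap-binding protein eIF4E, 3 CXC chemokine genes carried bound regions: CXCL3 and CXCL8 on chromosome 4 and CXCL12 on chromosome 10. They are 3 of the 861 genes with a region in either of the deposited lists. They were chosen by the region positions in the authors' tables, which place a region inside them or across an end, so their presence in the lists is a description and supports nothing by itself.

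The regions come from RNA immunoprecipitation with an eIF4G2 antibody and sequencing (RIP-seq) in IHCF cells, human cardiac fibroblasts that were immortalized. The cells had been infected with a lentiviral vector for full-length eIF4G2 (overexpression) or with a scramble vector (control). The 8 libraries form 4 groups of 2 biological replicates: bound and total RNA of overexpressing cells, and bound and total RNA of control cells. Both conditions are the same single cell line and carry a lentiviral vector, and the antibody is directed at eIF4G2 itself, which control cells make too. The data are 1 list of regions per condition on GRCh38, matched to its condition by the table's name alone, and those names also contain MOV10, a protein that no sample label mentions. The lists hold positions and no read count, score, p-value or value per replicate, so the depth is unknown and no difference between the lists below has a test.

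In all, 8 of 3210 regions lay over the 3 genes. The overexpression list held 3 of them, all in CXCL12, and the control list held 5, which were 2 in CXCL8, 2 in CXCL3 and 1 in CXCL12. CXCL8 and CXCL3 had none in the overexpression list. None of the 8 regions lay over another annotated gene. The lists carry no strand, so the strand of the RNA under each region is not known. For comparison, the overexpression list held a region for 27.3% of the RefSeq protein-coding genes of chromosome 4, and the control list for 43.0%. The shares on chromosome 10 were 9.13% (overexpression) and 4.09% (control). Few regions lay on other chromosomes, apart from chromosome 18. Of the overexpression regions, 24.7% were on chromosome 4, 6.09% on chromosome 10 and 67.4% on chromosome 18. Of the control regions, 96.8% were on chromosome 4, 2.37% on chromosome 10 and 0 on chromosome 18. Genes elsewhere could therefore hardly be listed. Absence from a list is common as well: of the 381 named genes of chromosome 4 with a control region, 180 (47.2%) had no overexpression region, as CXCL8 and CXCL3 did. Genes that lack a region may still have been bound, and expression cannot be told apart from binding, because no level of total RNA was used here.

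**Figure D1:**
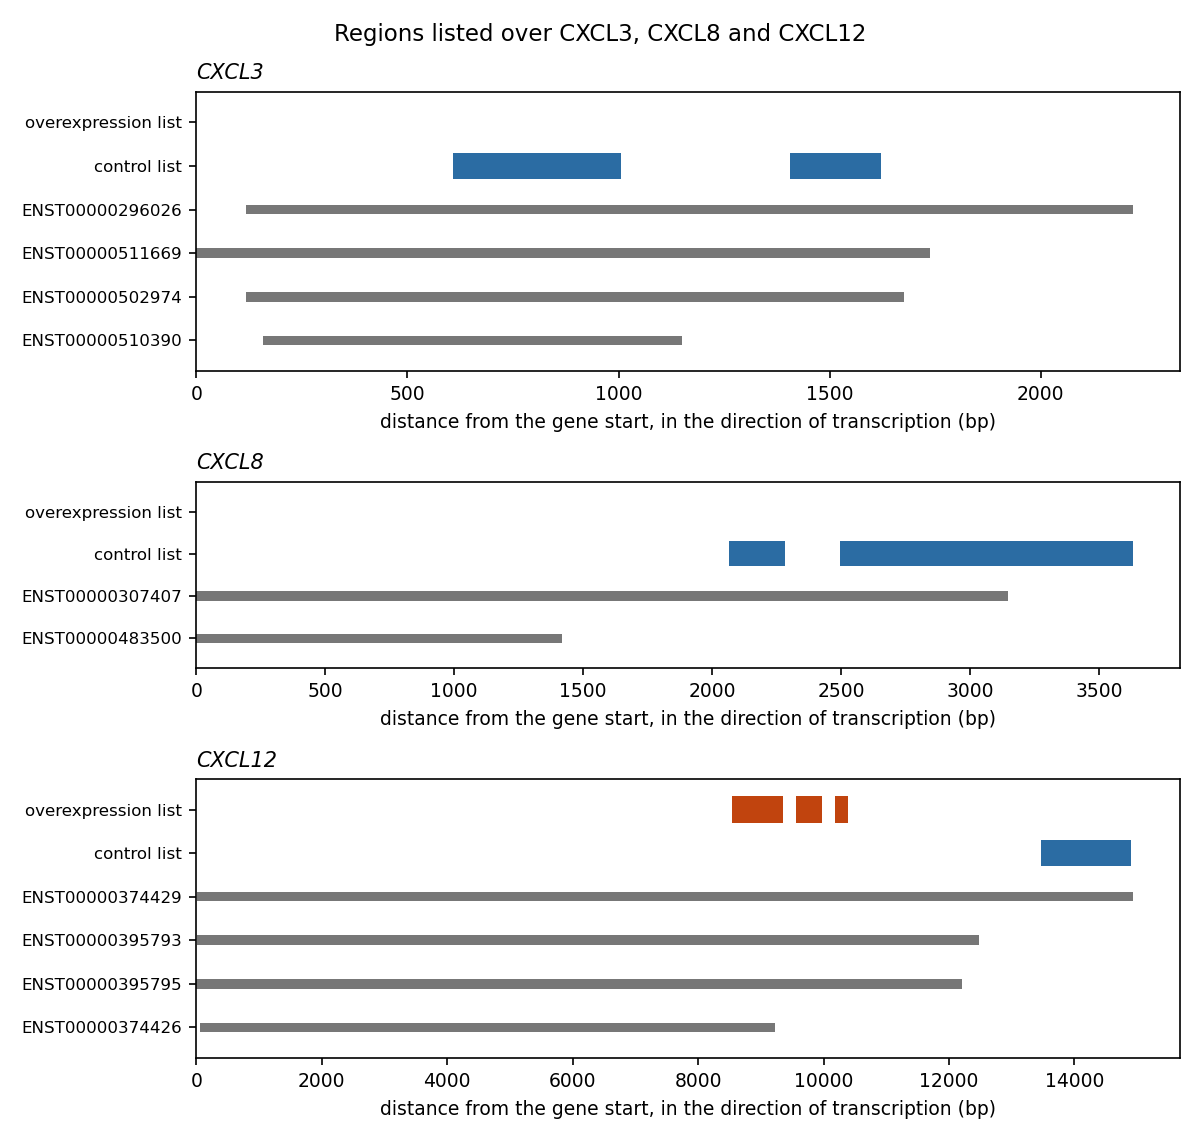
Bound regions along CXCL3, CXCL8 and CXCL12, in bp from the gene start in the direction of transcription, with the overexpression list above the control list and the spans of the Ensembl transcripts named in the tables as grey bars (introns are not drawn). CXCL3 and CXCL8 have 2 control regions each and no overexpression region, and in CXCL12 the 3 overexpression regions and the control region lie 3075 bp apart.

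CXCL8, the neutrophil attractant interleukin 8, lies on the forward strand of chromosome 4 at 73740569 to 73743716, a span of 3148 bp (ENSG00000169429). The overexpression list held no region over it. The first control region ran from 73742636 to 73742850 (215 bp) in the authors' deposited table, with its midpoint at 69.1% of the span of transcript ENST00000307407. The second ran from 73743066 to 73744200 (1135 bp), with its midpoint at 97.3%. Both therefore lay towards the 3′ end of the gene, and neither touched the shorter transcript ENST00000483500. The second region passed the annotated end of the gene by 484 bp, which leaves 651 bp of it inside. The 2 regions were separated by 215 bp, and their summed width was 1350 bp, of which 866 bp (27.5% of the gene span) lay within CXCL8.

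CXCL3, a second CXCR2 ligand that also attracts neutrophils, lies on the reverse strand of chromosome 4 at 74036589 to 74038807 in the Ensembl transcripts of the tables (ENSG00000163734, 2219 bp). As for CXCL8, only the control list held regions. The region nearer the 3′ end ran from 74037186 to 74037400 (215 bp) and the region nearer the 5′ end from 74037801 to 74038200 (400 bp), in the authors' deposited table. In the longest of its 4 transcripts, ENST00000296026, their midpoints stood at 66.4% and 32.8% of the span. CXCL3 thus differed from CXCL8 in having no region across its annotated 3′ end: the nearer region stopped 597 bp short of the end of ENST00000296026, and 117 and 54 bp short of the ends of ENST00000511669 and ENST00000502974. The fourth transcript, ENST00000510390, was covered by the 400 bp region alone. The regions summed to 615 bp, 27.7% of the gene span, a share close to the 27.5% of CXCL8 although CXCL8 had the wider regions.

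CXCL3 belongs to a group of very similar genes with CXCL1 and CXCL2, and how reads that match several of them were placed is not stated in the labels or tables. The CXCL3 regions are uncertain in that respect. Neither CXCL1 nor CXCL2 had a region in either list.

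CXCL12, the ligand of CXCR4, lies on the reverse strand of chromosome 10 at 44370165 to 44385097 (ENSG00000107562, 14933 bp). Of the 17 CXC chemokine genes examined, it was the only gene with regions in both lists. The overexpression list held 3 regions, at 44374711 to 44374915 (205 bp), 44375121 to 44375530 (410 bp) and 44375736 to 44376555 (820 bp) in the authors' deposited table. The control list held 1 region, at 44370201 to 44371635 (1435 bp). The overexpression regions summed to 1435 bp as well, 9.61% of the gene span in each list. The equal sums came from different parts of the gene: no base was shared, and 3075 bp lay between the control region and the nearest overexpression region.

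Among the 4 CXCL12 transcripts the authors named, the 2 positions differ in those they can belong to. The 3 overexpression regions lay within the spans of ENST00000374429, ENST00000395793 and ENST00000395795, and the widest of them also crossed the annotated end of the shorter ENST00000374426, by 131 bp. In ENST00000374429, the longest transcript, their midpoints stood at 59.9%, 65.4% and 68.9% of the span. The control region overlapped ENST00000374429 alone, with its midpoint at 94.9% and its edge 36 bp from the annotated end. The other 3 named transcripts end before it, and any further annotated transcripts were not examined. These are spans from transcript start to transcript end, and whether a region lies in an exon or an intron was not examined here.

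The promoters of the 3 genes were read from RefSeq on GRCh38.p14, because the sequence under the regions themselves was not used here and the promoters show what CXCL3 and CXCL8 have in common outside the regions. Each stretch below covers the 150 bases before the RefSeq gene start, at chr4:74038690-74038839 (reverse strand) for CXCL3, chr4:73740419-73740568 (forward strand) for CXCL8 and chr10:44385098-44385247 (reverse strand) for CXCL12. The RefSeq start of CXCL3 is 74038689, and the Ensembl transcript ENST00000511669 starts further upstream, at 74038807, inside the window. Capitals mark GGAATTTCC, a form of the site bound by NF-kappaB, TGACTCA, bound by AP-1, and the TATA box letters TATAAA. Each motif was searched on both strands, and the motifs were chosen after the sequences were seen.
CXCL3: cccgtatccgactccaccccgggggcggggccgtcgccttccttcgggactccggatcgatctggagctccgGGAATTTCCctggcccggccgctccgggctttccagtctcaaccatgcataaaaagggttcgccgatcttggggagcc
CXCL8: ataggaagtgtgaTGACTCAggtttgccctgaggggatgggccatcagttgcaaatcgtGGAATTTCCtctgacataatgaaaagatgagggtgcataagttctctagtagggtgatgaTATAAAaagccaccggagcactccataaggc
CXCL12: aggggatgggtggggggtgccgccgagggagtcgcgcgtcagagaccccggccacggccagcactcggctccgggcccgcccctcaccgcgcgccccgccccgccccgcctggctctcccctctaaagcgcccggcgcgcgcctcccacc

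The NF-kappaB letters began at position -78 in CXCL3 and -91 in CXCL8, counted from the RefSeq gene start, and were not in the CXCL12 window. CXCL8 also held the AP-1 letters at -137 and the TATA letters at -31. Only exact letters were counted, so near matches, such as cataaa in the CXCL3 window, were not marked. Among 27305 RefSeq promoter windows of the same length, 0.260% held GGAATTTCC on either strand, 2.83% TGACTCA and 7.05% TATAAA. Of the 15 CXC chemokine genes in the promoter table, 7 held GGAATTTCC: CXCL8 and CXCL3, and 5 of the 12 genes without a region (CXCL6, CXCL1, CXCL5, CXCL2 and CXCL11). The letters therefore did not separate listed from unlisted genes of the family. No bound region reached these windows: the closest region lay 490 bp from that of CXCL3, 2068 bp from that of CXCL8 and 8543 bp from that of CXCL12. The regions come from RNA and the windows lie before the RefSeq gene starts, so these distances say nothing about binding.

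Regions in the 2 lists usually met where a gene was in both. On chromosome 10, 14 named genes had regions in both lists, and in 13 of them at least 1 overexpression region overlapped a control region by 1 bp or more. CXCL12 was the remaining gene. On chromosome 4 the regions overlapped in 175 of 201 such genes and did not in the other 26. With so few regions per gene and no value per replicate, the separate positions in CXCL12 have no replicate check.

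Along their genes, where the chemokine regions stood depended on the transcript. On the longest transcript of each gene, the second region of CXCL8 lay in the last 20% of the span and the other 3 chemokine regions of chromosome 4 did not. Taking the median over all transcripts a region overlaps, the 215 bp region of CXCL3 (87.1%) lay in the last 20% too. Over coding genes of chromosome 4 of at most 5 kb, again on the longest transcript, the median midpoint was 62.4% for overexpression regions and 65.4% for control regions, with 40.0% of 15 overexpression entries and 32.1% of 28 control entries in the last 20%. Over all coding genes there, the medians were 85.1% (overexpression) and 80.0% (control), with 54.8% of overexpression entries and 49.9% of control entries in the last 20%.

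The control region of CXCL12 lay in the last 20% of the single named transcript it overlaps. On the longest transcript its 3 overexpression regions lay before the last 20%. In ENST00000395793 and ENST00000395795, however, the narrowest of them stood at 82.4% and 84.2%, in ENST00000395795 the 410 bp region stood at 80.0%, and in ENST00000374426 the widest stood at 97.0%. Over all coding genes of chromosome 10 the medians on the longest transcript were 90.9% (overexpression) and 98.3% (control), with 64.8% of overexpression entries and 87.9% of control entries in the last 20%.

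The edges of the regions show the resolution of the calls. Every region of chromosome 10 in both lists began and ended on multiples of 205 bp, and every region of chromosome 4 on multiples of 200 or 215 bp. The overexpression regions of CXCL12 were 1, 2 and 4 such bins wide and were separated by single bins, and the control region was 7 bins wide. Gaps of a single bin were found at 36 of the 120 gaps between neighbouring overexpression regions of chromosome 10 and at 1 of the 28 control gaps. On chromosome 4, the 215 bp regions of CXCL8 and CXCL3 were each a single bin of the 215 bp grid. The 400 bp region of CXCL3 had both ends on the 200 bp grid, and the 1135 bp region of CXCL8 began on the 215 bp grid and ended on the 200 bp grid. Such mixed edges were found in 162 of 491 overexpression regions (33.0%) and 316 of 1185 control regions (26.7%) of chromosome 4. The labels and tables do not say what the 2 grids stand for.

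By covered length, CXCL3 and CXCL8 were in the lower part of the control list of chromosome 4. Of 381 named genes there, 352 had a larger summed width than CXCL3 (615 bp) and 16 a smaller one. For CXCL8 (1350 bp) the counts were 265 larger and 114 smaller, and the median was 2150 bp. CXCL12 stood low in the overexpression list of chromosome 10, where 58 of 77 named genes had a larger sum than its 1435 bp and the median was 2255 bp. The same 1435 bp stood above the median of the control list (1230 bp), where 9 of 30 named genes had a larger sum. The sums are unscaled, and the covered length differs between the lists in opposite directions on these chromosomes: 425005 bp (overexpression) and 1015765 bp (control) on chromosome 4, and 151495 bp (overexpression) and 34440 bp (control) on chromosome 10.

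**Figure D2:**
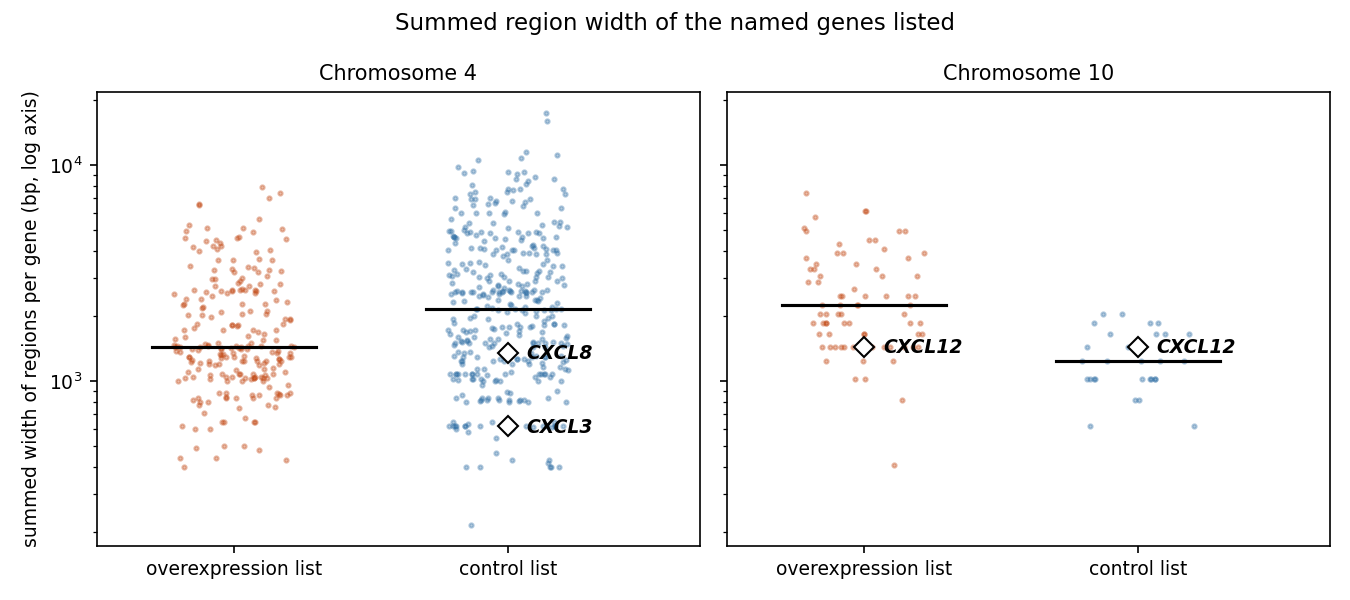
Summed width of regions per named gene, in bp on a log axis, for chromosomes 4 and 10, with the overexpression list left of the control list in each panel. Each dot is a gene, the black line is the median and open diamonds mark the chemokine genes. CXCL3 (615 bp) and CXCL8 (1350 bp) lie below the control median of 2150 bp, and CXCL12 has 1435 bp in each list.

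CXCL3 and CXCL8 are short, so they were also set beside other short genes. Of the 96 coding genes of chromosome 4 of at most 5 kb, 11 (11.5%) had an overexpression region and 16 (16.7%) a control region. Of the 78 such genes of chromosome 10, 4 (5.13%) had an overexpression region and 0 a control region, and CXCL12 itself is longer than 5 kb. Of the 16 genes of chromosome 4, 10 also had an overexpression region and 6 did not, CXCL8 and CXCL3 among the 6. CXCL3 had the smallest summed width of the 16, and 10 of them had a larger sum than CXCL8, with a median of 1737.5 bp and a highest value of 6320 bp. CXCL8 and CXCL3 were 2 of the 9 whose control regions lay over no other gene.

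**Figure D3:**
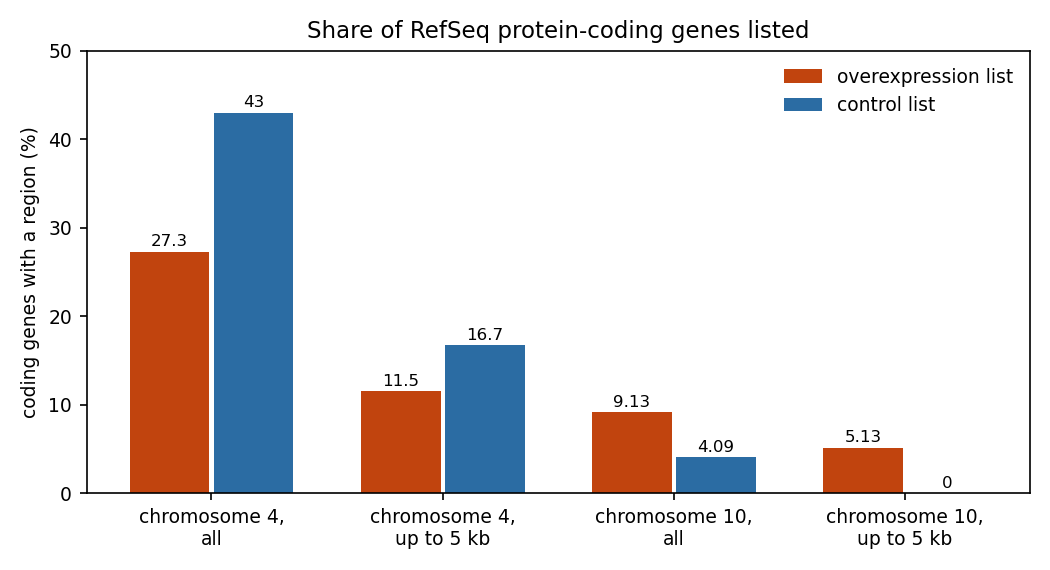
Share of RefSeq protein-coding genes with a region, in percent, for all genes and genes of at most 5 kb on chromosomes 4 and 10, with the overexpression list (left bar) beside the control list (right bar). On chromosome 4, 11.5% of short genes had an overexpression region and 16.7% a control region, and over all coding genes there the shares were 27.3% (overexpression) and 43.0% (control).

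The rest of the family was not listed. Of the 17 CXC chemokine genes examined, 13 lie on chromosome 4 and 1 on chromosome 10. The other 3 (CXCL14, CXCL16 and CXCL17) lie on chromosomes where few regions were listed. On chromosome 4, 0 of 13 had an overexpression region and 2 of 13 had a control region, the 2 being the genes chosen here. All of the 13 but CXCL9 and CXCL13 are at most 5 kb long. Of all coding genes of chromosome 4 of that length, 11.5% had an overexpression region and 16.7% a control region. Because the 2 control genes were chosen for having regions, the control count cannot be weighed against that share. Neither count was tested. In the cluster that starts with CXCL8, the neutrophil attractants CXCL6, CXCL1, CXCL5 and CXCL2 and the platelet chemokine genes PF4V1, PF4 and PPBP had no region in either list. The nearest control region to these 7 genes was between 38.5 kb (CXCL5) and 125.2 kb (CXCL1) away. The interferon-induced T cell attractants CXCL9, CXCL10 and CXCL11 and the B cell attractant CXCL13 also had none. The nearest regions to CXCL9 were 33.9 kb away (overexpression) and 36.4 kb away (control).

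The chemokine cluster lay in a stretch of chromosome 4 without overexpression regions, from 73263001 to 75481600 (2.22 Mb). It holds 19 RefSeq protein-coding genes, of which 3 had a control region: CXCL8, CXCL3 and MTHFD2L, a mitochondrial enzyme of folate metabolism. CXCL8 and CXCL3 were chosen for having regions. Over all of chromosome 4, 43.0% of coding genes had a control region, and 16.7% of those of at most 5 kb. The overexpression list left 25 stretches at least as long among its 490 gaps on chromosome 4, and the longest was 11.1 Mb. In the overexpression list the nearest listed genes were an unnamed gene (ENSG00000250220) 478 kb from CXCL8 and RCHY1, a ubiquitin ligase, 1.44 Mb beyond CXCL3. In the control list ENSG00000250220, 477 kb away, came before CXCL8, and MTHFD2L, 121 kb away, came after CXCL3. CXCL12 stood alone in the control list, with WAC at 15.7 Mb and LRRC20 at 25.9 Mb as its nearest listed genes. In the overexpression list its nearest were PLD5P1 at 6.25 Mb and RASSF4, a Ras association domain gene, at 0.609 Mb.

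**Figure D4:**
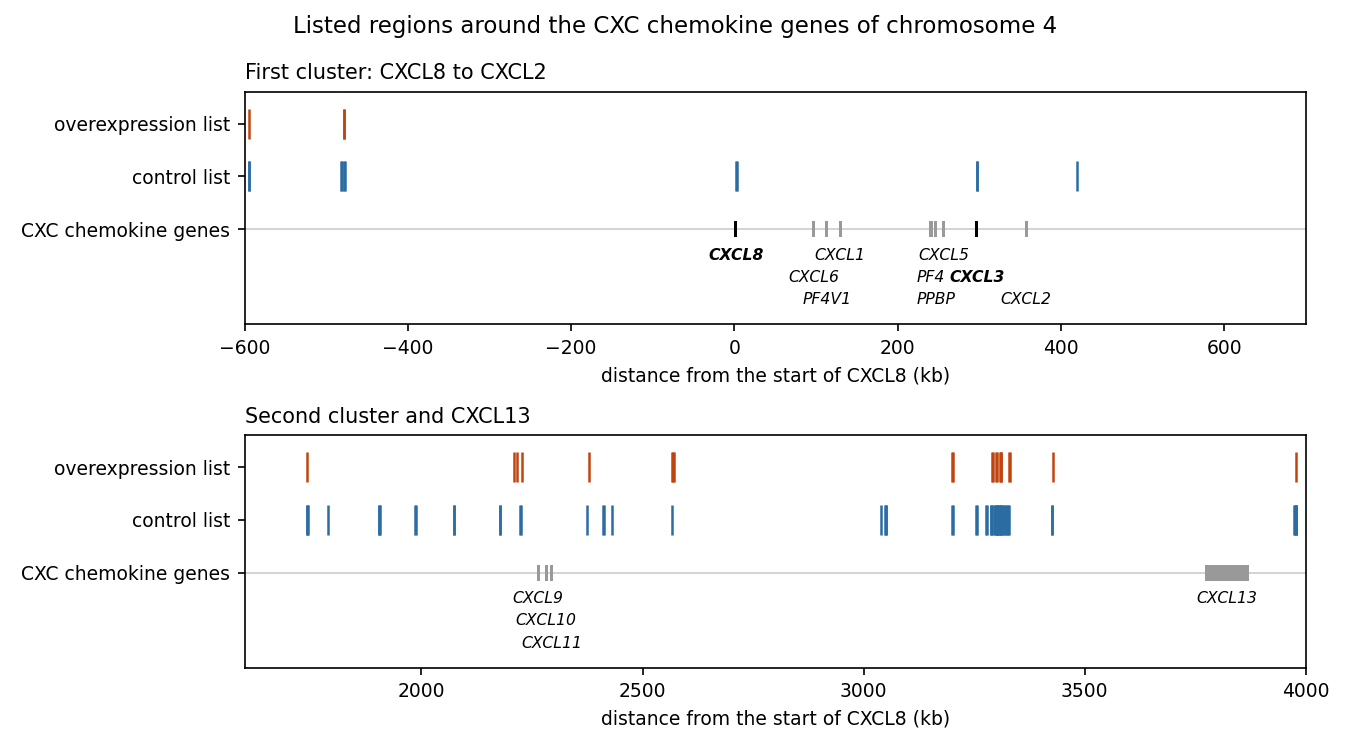
Regions of the overexpression list (upper ticks) and the control list (lower ticks) around the CXC chemokine genes of chromosome 4, in kb from the start of CXCL8, with the genes as bars on the bottom line. The control list has ticks at CXCL8 and CXCL3, and the nearest overexpression region lies 478 kb from CXCL8.

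The genes most like the chemokine genes were taken as those of the same chromosome and the same list or lists whose summed width was closest. For CXCL3, 8 of 179 other control-only genes of chromosome 4 had the same sum of 615 bp, among them GSTCD, LINC01085 and MAD2L1, the spindle checkpoint gene, which come first by name. For CXCL8, genes of close width among the same 179 were MMAA, a mitochondrial cobalamin gene (1360 bp), and TAPT1 (1390 bp). For CXCL12, the closest of 13 genes in both lists were P4HA1, a collagen prolyl hydroxylase subunit (1435 bp of overexpression and 1025 bp of control regions), FRMD4A (1845 bp of overexpression and 1230 bp of control regions) and the mitotic gene BUB3 (2255 bp of overexpression and 1435 bp of control regions). These are likenesses of width alone.

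Of the 8 CXC chemokine receptor genes, CXCR4 and ACKR3 among them, 0 had a region in either list, and none of them lies on chromosome 4, 10 or 18. Few regions were listed outside these 3 chromosomes, so that count says little about the receptors. Of 20 genes for inflammatory regulators and cytokines, 7 lie on these chromosomes, of which 2 had an overexpression region and 0 a control region. The share of coding genes listed differs between the 3 chromosomes of these 7 genes: besides the shares given above for chromosomes 4 and 10, 60.0% of the coding genes of chromosome 18 had an overexpression region and 0% a control region. NFKB2, a subunit of NF-kappaB on chromosome 10, had 3 overexpression regions (2255 bp), 1 of them also over PSD. MALT1, a protease that activates NF-kappaB, had 8 (4065 bp) on chromosome 18, and all 8 also lay over unnamed genes. NFKB1, TLR2 and TLR3 on chromosome 4 and CHUK and MAP3K8 on chromosome 10 had none in either list. IL6, CCL2 and the other 11 members lie elsewhere, where few regions were listed, and had none.

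Of 7 genes for proteins that bind AU-rich mRNAs, the class of mRNA to which those of CXCL8 and CXCL3 belong, HNRNPD and HNRNPDL lie on chromosome 4 and had regions. HNRNPD (AUF1) had 5 regions in the overexpression list (3935 bp) and 4 in the control list (8600 bp), with 1 region of each list also over HNRNPD-DT. HNRNPDL had no overexpression region and 4 control regions (6510 bp), 1 of them also over ENOPH1. Listing is common on chromosome 4, where 27.3% of all coding genes had an overexpression region and 43.0% a control region. A link of either gene to CXCL8 and CXCL3 was not tested. ELAVL1, ZFP36, ZFP36L1, KHSRP and TIA1 lie on other chromosomes, where few regions were listed, and had none. Of 10 fibroblast markers 0 had a region in either list, including PDGFRA on chromosome 4 and VIM and ACTA2 on chromosome 10, and of 5 endothelial, 6 cardiomyocyte and 5 immune markers 0 had one. The lists therefore gave no check of the labelled cell type, since few markers could be listed and a gene may be expressed without a listed region.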

How the data were processed

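RNA bound by eIF4G2 was represented by 1 table of regions per condition. The authors deposited positions, widths and distances in bp, which the headers show to be unnormalized. The tools recorded are bcl2fastq (version 2.19.0), Trimmomatic (version 0.36) and HISAT2 (version 2.1.0), with the build GRCh38 (hg38), per the submitters' processing notes. How regions were called, at what threshold, whether total RNA served as background and how replicates were combined is not stated. The tables hold no counts, so the planned tests on counts per replicate could not be made.

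Listed genes are those with a region inside or across them; genes merely closest to a region were dropped. Each region entered once per gene, and overlaps needed 1 bp. Bin sizes were found from the region edges. RefSeq records of GRCh38.p14 matched 725 of 733 named genes, 710 by symbol and 15 by synonym. The text names the 3 genes, fixed lists of related genes, the nearest listed genes and those closest in summed width, of which 1 is not reported here. The genes, lists and settings were chosen with earlier results of these data known. Listing, overlap and merging were tested on simulated data. Calculations used Python 3.11.15, pandas 2.3.3 and numpy 2.4.6, and plots matplotlib 3.10.9.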

Additional observations from a re-analysis of the deposited data

How the results depend on the processing

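Whether a gene was listed did not depend on counting nearest genes, on regions of at least 400 bp or on regions over 1 gene only, for the 3 genes and for the family. Without CXCL3, CXCL8 and CXCL12, a choice made after seeing the data, the family had 0 listed genes in each list. Merging regions up to 1000 bp apart left 1 control region each in CXCL3 and CXCL8 and 1 overexpression region in CXCL12. Regions of at least 400 bp left 1 each in CXCL3 and CXCL8, and 2 overexpression regions in CXCL12. With both ends on the 200 bp grid, 1 region of CXCL3 and 0 of CXCL8 were left, and on the 215 bp grid 1 of CXCL3 and 1 of CXCL8, both again chosen after seeing the data. Taking the widest region instead of the sum gave 400 bp for CXCL3, 1135 bp for CXCL8 and 820 bp for the overexpression regions of CXCL12. Within the gene span CXCL8 had 866 bp. The median midpoint on the longest transcript was 49.6% of the span for CXCL3 (66.2% as the median over transcripts) and 65.4% for CXCL12 in the overexpression list (78.3%). Scaling to the total width of each list changed the CXCL12 ratio of overexpression to control to 0.821 (1 unscaled), and scaling to the width on chromosome 10 alone, chosen after seeing the data, to 0.227. The first total includes chromosome 18, which has regions in the overexpression list alone. The regions of CXCL12 did not overlap between the lists at 1 bp, and so not at 50% of the shorter or of both regions. No paired analysis was possible because the tables hold no value per replicate; for the same reason no replicate could be left out, and normalization by DESeq2 size factors was not run. The unknown depth limits every absence above.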
